A study of Homo sapiens with 8 samples.

Results

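PDGFs and VEGFs are secreted growth factors that act as dimers on receptor tyrosine kinases. Described here are 10 genes: the ligands PDGFA, PDGFB, PDGFC, PDGFD, VEGFA, VEGFB, VEGFC and PGF and the PDGF receptors PDGFRA and PDGFRB. A probe set is a group of array probes read as 1 value. All probe sets that the platform annotation assigns to 1 of these symbols were taken, which gave 23 of the 54613 probe sets tested and 10 of the 19775 genes. PGF encodes placental growth factor, a VEGF relative. PDGFs act mainly on fibroblasts, pericytes and other mesenchymal cells. PDGFA and PDGFB are released in active form, whereas PDGFC and PDGFD must first lose an inhibitory CUB domain by proteolysis. VEGFA is the main growth factor of blood vessel endothelium and a target of hypoxia, VEGFC acts on lymphatic endothelium through FLT4, and VEGFB and PGF bind FLT1. TGFβ signals through SMAD transcription factors and is known to induce PDGF chains in several mesenchymal and tumour cell types.

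Expression was measured on Affymetrix arrays in MDA-MB-231, a human metastatic breast cancer line that carries mutant p53. All cells carried a retroviral hairpin RNA against GFP as a control and were kept without serum for 24 h. Of the samples, 4 received TGFβ for 3 h and 4 were left untreated, each group with the replicate letters A to D. The labels give the TGFβ dose as 5 µg/ml, a unit that is uncertain because TGFβ is usually given in ng/ml. The submitters name the replicates biological but do not state that they came from separate cultures, and the p-values reflect only how these arrays vary, which may be technical. Arrays of p53-depleted cells, part of the series design, were not analysed here. All cells are from 1 line with 1 hairpin, and no receptor-bearing stromal or endothelial cells are named in the labels.

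Values are RMA signals on a log2 scale, an array summary that gives no call of presence or absence. The array medians lay between 4.62 and 4.66. The brightest probe sets of VIM, CD44, CAV1, AXL, LGALS1 and MSN, markers of a mesenchymal breast line, had mean signals at the 95.6 percentile of all probe sets or above. Other probe sets of these genes could be lower, such as VIM 1555938_x_at at 54.7 and CD44 229221_at at 62.9. Among 6 luminal markers, each by its brightest probe set, FOXA1 (16.4) and CDH1 (48.1) were below the median of all probe sets. ESR1 (66.1), GATA3 (82.1), EPCAM (89.1) and TFF1 (95) were above it. The best probe sets of the 8 endothelial markers lay between the 25.1 and 91.1 percentile and those of the 8 pericyte and fibroblast markers between 22.3 and 65.0. The 3′ minus 5′ difference of the actin control probe sets, a sign of RNA or labelling quality, was 1.68 on TGFβ array A and between 0.627 and 0.893 on the other 7 arrays. The same difference for GAPDH was 0.537 on TGFβ array A and at most 0.143 on the others.

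PDGFB, the B chain of platelet-derived growth factor, rose after TGFβ, and 2 of its 4 probe sets passed the test. No other member had a probe set that passed in the limma fit of TGFβ-treated against untreated arrays. That fit took no account of the replicate letter, and p was adjusted over all 54613 probe sets with a threshold of 0.05. Thus 2 of the 23 probe sets rose, none fell and 21 did not pass. Over the whole array 0.152% of probe sets rose, 0.104% fell and 0.256% changed in either direction. An unadjusted p under 0.05 was reached by 4 of the 23, the other 2 being PDGFB 216055_at and PDGFA 205463_s_at. Over all 54613 probe sets at least 3343 and fewer than 4154 had an unadjusted limma p under 0.05. Counts at this level in the lists below are to be read beside that. The median log2 fold change was 0.10 over the 23 probe sets, against 0.01 over all probe sets. A positive log2 fold change was found in 15 of the 23 and in 53.7% of all probe sets. With the replicate letter as a block, 3 of the 23 rose, with PDGFA 205463_s_at added, and none fell. In that fit 0.758% of all probe sets rose, 0.989% fell and 1.75% changed in either direction. The members, and the lists below, were chosen with earlier results of these data known. Their counts and medians, in either fit, are therefore no test of a group. In RNA from whole cultures, more expressing cells and more RNA per cell cannot be told apart.

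**Figure D1:**
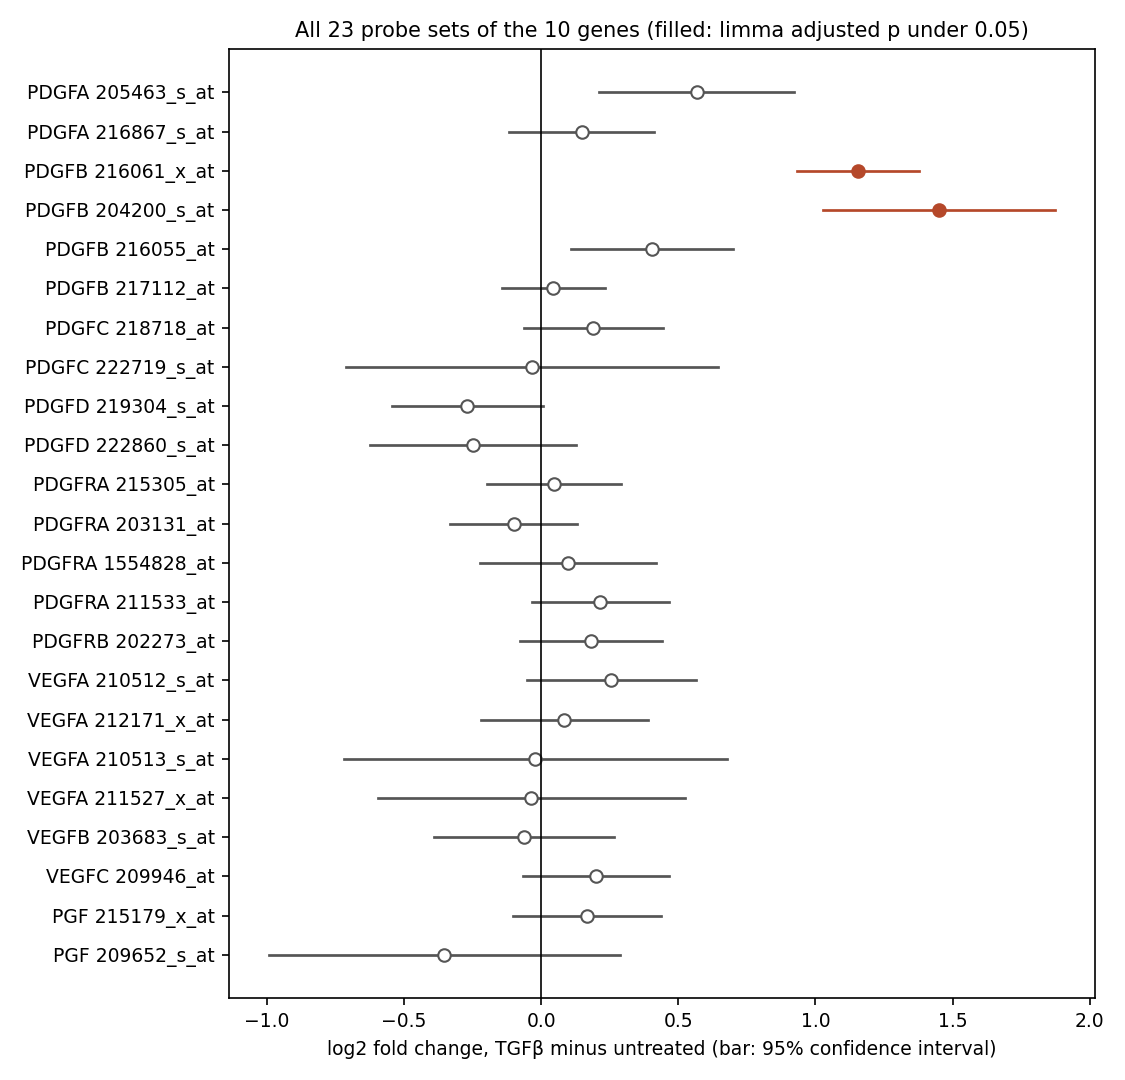
log2 fold change (TGFβ minus untreated, x axis) with its 95% confidence interval for each of the 23 probe sets, grouped by gene down the page, from limma on 4 TGFβ and 4 untreated arrays. The 2 filled points, PDGFB 216061_x_at at 1.16 and 204200_s_at at 1.45, passed at an adjusted p of 0.05, and the 21 open points did not.

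Probe set 216061_x_at of PDGFB read 7.36, 7.04, 7.06 and 7.10 on the TGFβ arrays A to D, against 5.96, 5.90, 6.10 and 5.97 on the untreated arrays. The 4 treated values formed a narrow group about 1 unit above the untreated group, and the groups did not overlap. Its mean was 7.14 ± 0.15 with TGFβ and 5.98 ± 0.09 without (log2, SD, n = 4 each), a 2.23-fold increase (log2 fold change 1.16 ± 0.10 SE, limma adjusted p = 0.00225). It ranked 8th of all probe sets by p. It passed whichever array was left out, with adjusted p up to 0.018.

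Probe set 204200_s_at of PDGFB read 6.44, 5.76, 6.30 and 6.02 on the TGFβ arrays A to D, against 4.91, 4.52, 4.27 and 5.00 on the untreated arrays. The groups again did not overlap, but the arrays of each group were spread more widely. The means were 6.13 ± 0.30 with TGFβ and 4.68 ± 0.34 without, a 2.74-fold increase (95% interval 2.04 to 3.67; log2 fold change 1.45 ± 0.19 SE, limma adjusted p = 0.0161). It passed in 5 of the 8 fits without 1 array and lost the call without untreated replicate C (adjusted p = 0.0604), TGFβ replicate C (0.0700) or TGFβ replicate D (0.0655). Both PDGFB probe sets passed without TGFβ array A (log2 fold changes 1.08 and 1.35). The groups did not overlap in these 2 of the 23 probe sets, both higher with TGFβ. Among all probe sets 2.79% did so with the higher signal in TGFβ-treated cells, 1.97% with the lower and 4.75% in all.

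The remaining PDGFB probe sets gave smaller values. Probe set 216055_at read 4.47, 4.06, 4.55 and 4.43 with TGFβ, against 4.08, 4.13, 3.71 and 3.98 without. Treated array B lay within the untreated range and the other treated arrays above it. The log2 fold change of 0.40 ± 0.13 SE did not pass (limma adjusted p = 0.439). Probe set 217112_at read 4.061, 4.053, 4.048 and 3.876 with TGFβ, against 3.931, 3.992, 4.015 and 3.921 without. Treated A, B and C lay just above all untreated arrays and treated D below them, so the untreated range lay inside the treated one. Its log2 fold change was 0.04, with a 95% interval from -0.14 to 0.23 (limma adjusted p = 0.949). The mean signals of 216055_at and 217112_at were at the 42.2 and 38.9 percentile of all probe sets, those of 216061_x_at and 204200_s_at at the 74.1 and 61.0.

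**Figure D2:**
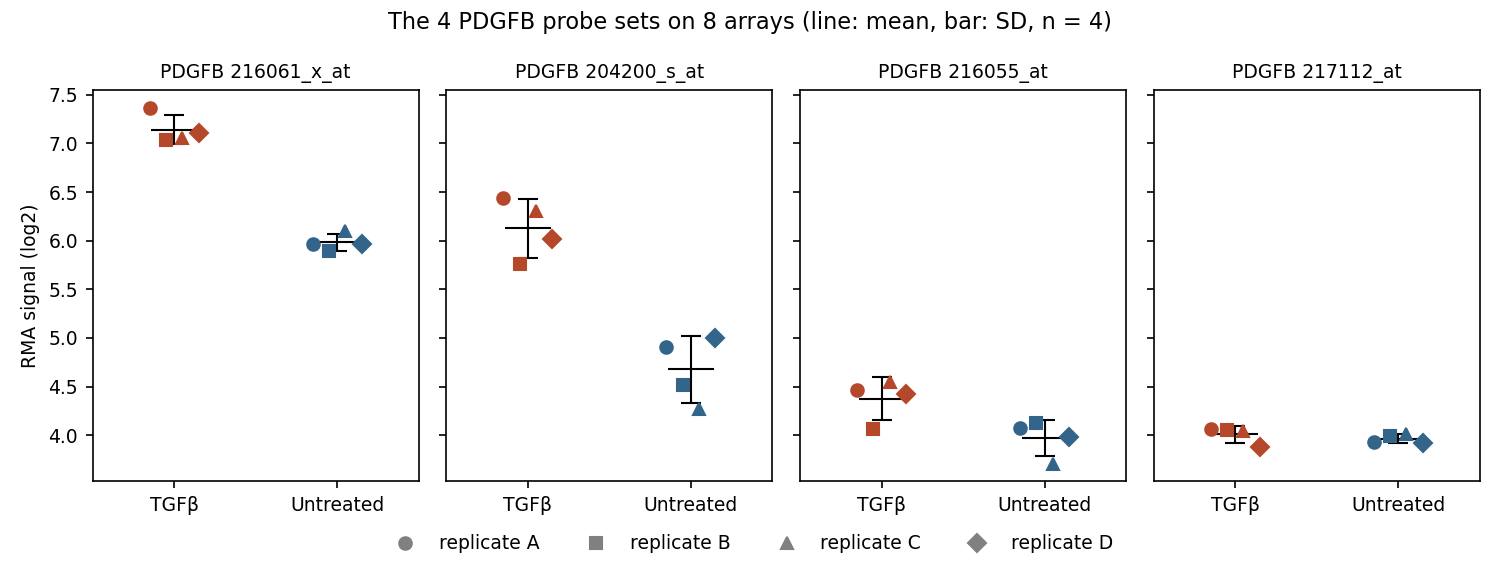
RMA signal (log2, y axis) of the 4 PDGFB probe sets on the TGFβ-treated (left in each panel) and untreated arrays, with a marker for each replicate letter, a line at the mean and a bar for the SD (n = 4). The treated arrays sit above all untreated arrays for 216061_x_at (7.04 to 7.36 against 5.90 to 6.10) and 204200_s_at (5.76 to 6.44 against 4.27 to 5.00), and the groups overlap for 216055_at and 217112_at.

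The measured change in RMA signal was compared between the PDGFB probe sets, of which 216055_at and 217112_at had the lower signals. The part of low signal in these differences was not tested. The difference between 2 probe sets was formed on each array and compared between TGFβ and untreated arrays with an exact two-sided permutation test, over 6 pairs and with a smallest possible p of 0.0286. The change on 216061_x_at exceeded that on 217112_at by 1.11 (log2, 95% interval 0.90 to 1.33; exact permutation p = 0.0286, adjusted p = 0.0429 over the 6 pairs) in 4 of 4 same-letter pairs. It exceeded that on 216055_at by 0.75, and 204200_s_at exceeded 216055_at by 1.05 and 217112_at by 1.41, each in 4 of 4 pairs and with the same exact permutation p and adjusted p. Between 216061_x_at and 204200_s_at the difference was -0.30 (95% interval -0.85 to 0.26; exact permutation p = 0.257). The change on 216055_at was 0.36 above that on 217112_at (95% interval -0.04 to 0.76; exact permutation p = 0.114). The names ending in _s_at and _x_at mark probe sets that can match several transcripts. Both PDGFB probe sets that passed are of this kind, and neither of the others is.

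Taken as 1 gene by its brightest probe set, PDGFB was the 1 member of 10 that passed, where 0.354% of all 19775 genes rose, 0.223% fell and 0.576% changed. With the letter as a block PDGFA, at 1 probe set per gene, passed as well (limma adjusted p = 0.00913), so that 2 of the 10 genes did. By the mean of its 4 probe sets the PDGFB log2 fold change was 0.76 ± 0.09 SE (limma adjusted p = 0.00771). The genes whose signal over the 8 arrays was most like that of PDGFB 216061_x_at were FSTL3 (Pearson r = 0.989), POLR1G (0.987), ANGPTL4 (0.987), TUFT1 (0.986) and EDN1 (0.986), out of 14577 genes in the upper 60% of signals. All 5 had a log2 fold change between 0.89 and 2.80. These arrays share the treatment, and when deviations from the group means were used the correlations of the same 5 genes were between 0.432 and 0.764. Over the 8 arrays the r of the other members with PDGFB lay between -0.654 for PDGFD and 0.771 for PDGFA. From deviations from the group means these were -0.113 for PDGFD and 0.024 for PDGFA. By that measure the other members lay between -0.689 for PDGFRA and 0.394 for VEGFB.

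PDGFA, the A chain, which signals through PDGFRA, had the next largest log2 fold change after the called probe sets. Probe set 205463_s_at read 6.78, 6.80, 6.27 and 6.34 on the TGFβ arrays A to D, against 5.93, 6.33, 5.78 and 5.89 on the untreated arrays. Treated C lay just below untreated B, so the groups overlapped, while each treated array was above the untreated array of its own letter. The means were 6.55 ± 0.28 with TGFβ and 5.98 ± 0.24 without (log2, SD, n = 4 each). The log2 fold change of 0.57 ± 0.16 SE did not pass (limma adjusted p = 0.313). With the letter as a block its SE was 0.10 and it passed (limma adjusted p = 0.0261). In that fit it also passed without letter A (0.47, adjusted p = 0.0379) and did not pass without letter B, C or D. The same-letter differences were 0.855, 0.464, 0.493 and 0.457 for A, B, C and D, and the largest came from the pair that holds the array with the high actin 3′ difference, whose part in the result was not tested. The second PDGFA probe set, 216867_s_at, had 0.15 ± 0.12 SE (limma adjusted p = 0.845), with 3 of 4 pairs higher.

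RefSeq start windows of GRCh38.p14 matched 7 of the 10 members by symbol, and PDGFB, PDGFC and VEGFA had no match. PDGFA had 4 start windows, and 1 is shown because PDGFA is the member with a window that passed in the block fit. It is the 250 bases upstream of the start at chr7:519847-520096 on the minus strand, 5′ to 3′, with matches to the GC box GGGCGG in capitals.
PDGFA upstream: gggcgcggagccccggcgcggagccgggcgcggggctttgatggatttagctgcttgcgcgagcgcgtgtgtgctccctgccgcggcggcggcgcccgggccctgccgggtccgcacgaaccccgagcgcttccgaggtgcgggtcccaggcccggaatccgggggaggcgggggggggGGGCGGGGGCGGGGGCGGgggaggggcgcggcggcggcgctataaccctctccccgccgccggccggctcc
The window was 81.6% G and C and held 3 matches, side by side. Searched on both strands, GGGCGG occurred in 42.6% of the 35116 upstream windows of this length, and 3 or more matches in 13.9%. CAGAC, a SMAD-binding motif, was not in this window and occurred in 38.0% of all windows. The AP-1 motif TGANTCA, in 6.57% of all windows, was also not in it, nor was the hypoxia motif ACGTG, in 18.5%. The other PDGFA windows held 4, 1 and 5 matches to GGGCGG, and 1 of them held 2 matches to CAGAC. A match describes letters only and is no evidence of a factor at that position.

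PDGFC and PDGFD, the ligands that need cleavage, did not pass. PDGFC 218718_at read 11.08, 11.20, 10.83 and 10.93 with TGFβ, against 10.61, 10.92, 10.80 and 10.94 without. Untreated A was the lowest array and the groups overlapped. The fold change was 1.14 (95% interval 0.96 to 1.36; limma adjusted p = 0.784). On 222719_s_at, another PDGFC probe set, both arrays of letter A were low, at 6.83 with TGFβ and 6.995 without, against 7.64 to 8.17 on the other treated and 7.67 to 8.07 on the other untreated arrays. Its log2 fold change was -0.03 ± 0.31 SE, and with the letter as a block the SE was 0.09 (95% interval -0.23 to 0.16).

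PDGFD went the other way, with a negative log2 fold change on both of its probe sets. Probe set 219304_s_at read 6.78, 6.91, 6.73 and 6.79 with TGFβ, against 6.76, 7.12, 7.06 and 7.36 without. Treated arrays lay close together near the lowest untreated array, A. The fold change was 0.830 (95% interval 0.686 to 1.00; limma adjusted p = 0.684), with 1 of 4 pairs higher. Probe set 222860_s_at had a log2 fold change of -0.25 ± 0.17 SE (limma adjusted p = 0.811), also with 1 of 4 pairs higher. Its lowest array was TGFβ A at 4.74, again the array with the high actin difference, and without it the log2 fold change was -0.07.

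**Figure D3:**
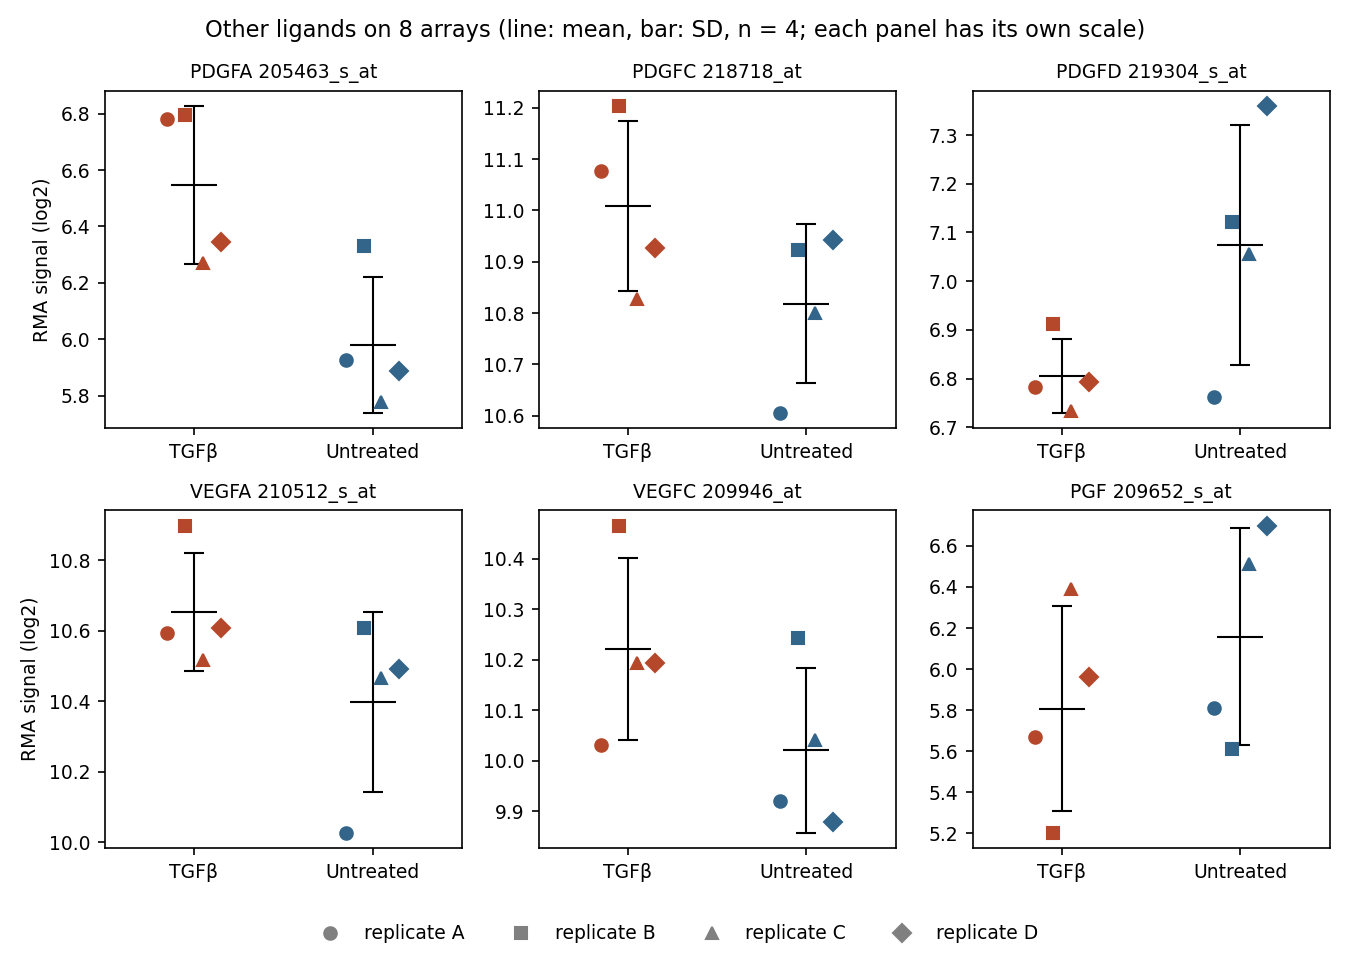
RMA signal (log2, y axis, a scale of its own in each panel) of 6 probe sets of other ligands on TGFβ-treated (left) and untreated arrays, with markers for the replicate letters, the mean and the SD (n = 4). Shown are the brightest probe sets of PDGFA, PDGFC, PDGFD, VEGFA and VEGFC, but for PGF the dimmer 209652_s_at. In every panel the treated and untreated arrays overlap. PDGFA (6.27 to 6.80 against 5.78 to 6.33) comes closest to a separation.

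The PDGF receptors did not pass and their signals were low or moderate. PDGFRA, the receptor for the A, B and C chains, has 4 probe sets, with mean signals between the 5.94 and 58.2 percentile of all probe sets. The highest, 215305_at, read 5.10 to 5.31 with TGFβ and 4.90 to 5.35 without, so the treated range lay inside the untreated one. Log2 fold changes of the 4 were between -0.10 and 0.22, with adjusted p between 0.741 and 0.962. PDGFRB, the receptor for the B and D chains, has 1 probe set, 202273_at, at the 65.3 percentile. It read 5.66, 5.75, 6.05 and 5.85 with TGFβ, against 5.81, 5.47, 5.57 and 5.74 without. The groups overlapped, and the fold change was 1.13 (95% interval 0.95 to 1.36; limma adjusted p = 0.801).

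VEGFA had a high signal in both groups and no probe set that passed. Probe set 210512_s_at, at the 97.8 percentile, read 10.59, 10.90, 10.52 and 10.61 on the TGFβ arrays A to D, against 10.03, 10.61, 10.47 and 10.49 on the untreated arrays. Each treated array was above the untreated array of its letter, by 0.565, 0.291, 0.053 and 0.117, while the groups overlapped. The means were 10.65 ± 0.17 with TGFβ and 10.40 ± 0.25 without, a fold change of 1.19 (95% interval 0.96 to 1.48; limma adjusted p = 0.754, and 0.333 with the letter as a block). The interval leaves room for a rise of up to 1.48-fold, so the data do not show that VEGFA was unaltered.

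The other 3 VEGFA probe sets, 212171_x_at, 210513_s_at and 211527_x_at, had log2 fold changes of 0.085, -0.02 and -0.04 with adjusted p between 0.938 and 0.995. Both arrays of letter A were the lowest of their group on each of them. On 210513_s_at TGFβ array A read 6.34, against 7.76 to 7.84 on the other treated arrays, and untreated A read 7.05, against 7.42 to 7.71. On 211527_x_at TGFβ A read 6.25, against 7.19 to 7.32 on the other treated arrays. TGFβ array A is the one with the actin 3′ minus 5′ difference of 1.68, and the part of that difference in these values was not tested. Without it the log2 fold changes were 0.35 on 210513_s_at and 0.21 on 211527_x_at (limma adjusted p = 0.580 and 0.825).

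**Figure D4:**
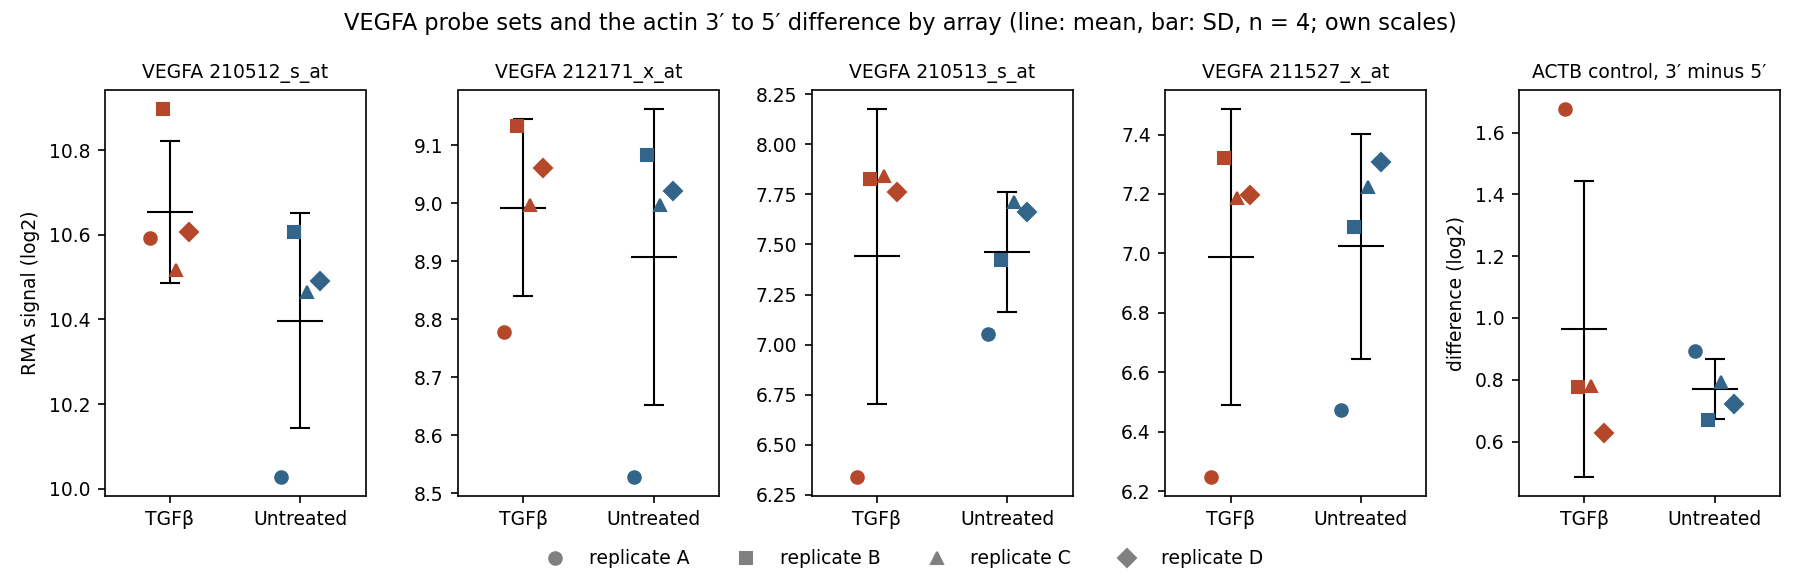
RMA signal (log2, y axes, own scales) of the 4 VEGFA probe sets and, in the last panel, the 3′ minus 5′ difference of the actin control probe sets (log2) on TGFβ-treated (left) and untreated arrays, with the mean and SD (n = 4). TGFβ array A has the lowest signal on 210513_s_at (6.34) and 211527_x_at (6.25) and the highest actin difference (1.68).

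VEGFB, VEGFC and PGF also did not pass. VEGFC 209946_at, at the 96.9 percentile, read 10.03, 10.47, 10.19 and 10.19 with TGFβ, against 9.92, 10.24, 10.04 and 9.88 without. All 4 same-letter differences were positive and none exceeded 0.314. The fold change was 1.15 (95% interval 0.96 to 1.38; limma adjusted p = 0.784). VEGFB 203683_s_at read 6.22 to 6.93 with TGFβ and 6.56 to 6.85 without, with a fold change of 0.958 (95% interval 0.763 to 1.20).

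The 2 PGF probe sets pointed in opposite directions. Probe set 215179_x_at read 8.15, 8.22, 7.69 and 8.003 with TGFβ, against 7.90, 7.84, 7.92 and 7.74 without (log2 fold change 0.17 ± 0.12 SE, limma adjusted p = 0.825). Treated C was the lowest array and treated A, B and D were the highest. Probe set 209652_s_at read 5.67, 5.20, 6.39 and 5.96 with TGFβ, against 5.81, 5.61, 6.51 and 6.70 without (log2 fold change -0.35 ± 0.29 SE, limma adjusted p = 0.850). Each treated array was below the untreated array of its letter, and letters C and D were above A and B in both groups. With the letter as a block the SE was 0.12 and it still did not pass (limma adjusted p = 0.216).

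**Figure D5:**
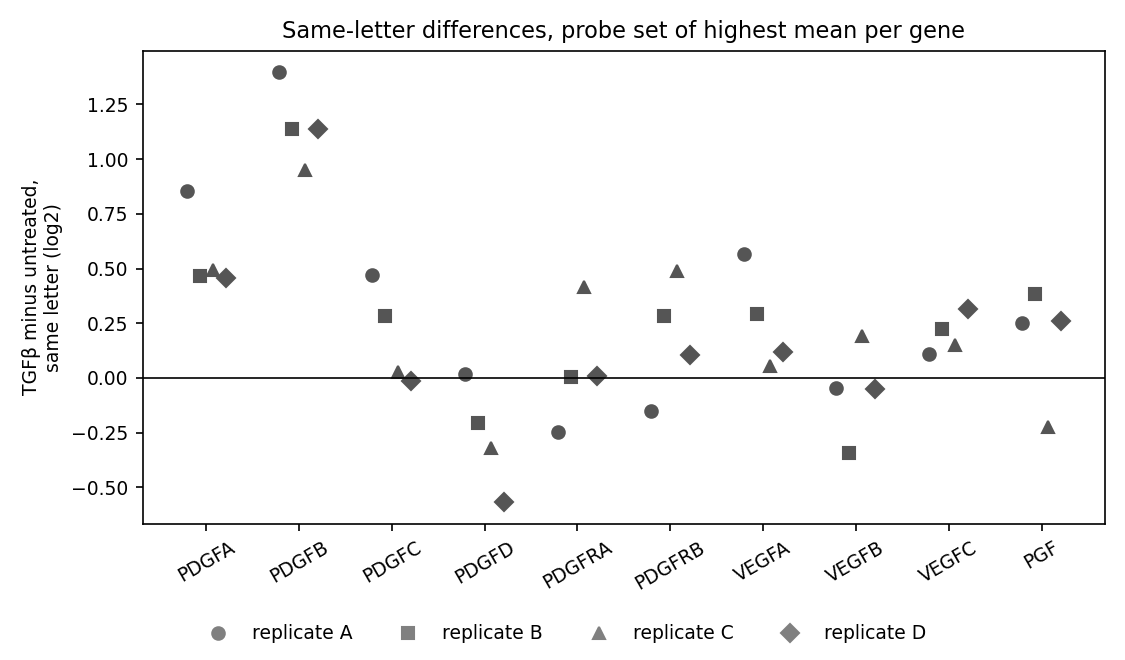
Difference in RMA signal between the TGFβ-treated and the untreated array of the same letter (log2, y axis) for the brightest probe set of each of the 10 genes, with a marker per letter. PDGFB has all 4 differences between 0.952 and 1.40 and PDGFA between 0.457 and 0.855, and PDGFC, PDGFD, PDGFRA, PDGFRB, VEGFB and PGF have differences on both sides of 0.

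The other VEGF receptors and co-receptors held 1 probe set that passed. NRP2, a co-receptor for VEGFC and for semaphorins, read 5.62, 5.52, 5.17 and 5.25 with TGFβ on 222877_at, against 4.27, 4.68, 3.88 and 4.34 without. The groups did not overlap, and the log2 fold change was 1.10 ± 0.17 SE (limma adjusted p = 0.0334). It passed in 2 of the 8 fits without 1 array, those without untreated replicate B or TGFβ replicate A, with adjusted p up to 0.129 without untreated replicate D. Among 26 probe sets of FLT1, KDR, FLT4, NRP1, NRP2 and PDGFRL, 1 rose, none fell and 25 did not pass. Over all probe sets 0.152% rose and 0.104% fell. With the block 2 rose, both of NRP2, and 1 fell, NRP1 212298_at, a co-receptor for VEGFA (log2 fold change -0.55, adjusted p = 0.0190, and 0.521 without the block). With the block 0.758% of all probe sets rose and 0.989% fell. The median of the 26 log2 fold changes was 0.09, and 8 of the 26 had an unadjusted limma p under 0.05 without the block.

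Proteases and binding proteins that release or hold these ligands had no probe set among 26 that passed, though 3 had an unadjusted p under 0.05. Over all probe sets 0.256% passed. FURIN, a proprotein convertase, had a log2 fold change of 0.55 ± 0.125 SE (limma adjusted p = 0.173). PLAU, the urokinase that can activate PDGFD, read 10.86, 11.85, 11.96 and 11.92 with TGFβ on 205479_s_at, against 10.06, 10.91, 10.55 and 10.86 without. Array A was the lowest of both groups, and the treated array A lay within the untreated range. Its log2 fold change of 1.05 ± 0.26 SE did not pass (limma adjusted p = 0.225) and passed with the block (0.00230), as did PLAU 211668_s_at (0.471 without the block and 0.0101 with it). Thus 2 of the 26 rose with the block and none fell, where 0.758% of all probe sets rose and 0.989% fell.

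Signalling proteins downstream of the receptors, such as GRB2, PLCG1 and SRC, gave no call. Of 33 listed genes 24 were analysed here with 85 probe sets. None passed in limma with or without the block, and 4 had an unadjusted p under 0.05. Over all probe sets 0.256% passed without the block and 1.75% with it. The smallest p were those of the kinase AKT2 (1560689_s_at, log2 fold change 0.48, limma adjusted p = 0.392) and the lipid kinase subunit PIK3CB (212688_at, -0.36, adjusted p = 0.570).

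Over all probe sets 0.152% rose, and of 57 probe sets of 22 hypoxia genes, a group to which VEGFA belongs, 1 did. It was PFKFB3 202464_s_at, an activator of glycolysis, with 8.12 ± 0.21 in TGFβ-treated and 7.40 ± 0.10 in untreated cells (log2, SD, n = 4 each; log2 fold change 0.72 ± 0.12 SE, limma adjusted p = 0.0394). It passed in 2 of the 8 fits without 1 array, those without TGFβ replicate A or B, with adjusted p up to 0.171 without untreated replicate C. It also missed the threshold with a trended and robust prior (limma adjusted p = 0.0549) and in the block fit without letter C (0.0519). With the block, where 0.758% of all probe sets rose, the glucose transporter SLC2A1 201250_s_at passed as well (log2 fold change 0.47, adjusted p = 0.0374, and 0.155 without the block). The median of the 57 was -0.01, against 0.01 over all probe sets. Without the block 4 of the 57 had an unadjusted limma p under 0.05.

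The list of 18 other angiogenic factors had 51 probe sets, of which 5 rose and none fell, where 0.152% of all probe sets rose. Like the members and the other lists, this list was chosen with earlier results of these data known. Its counts, also in the block fit, are therefore no test of the group. Among the 5 were 222802_at and 218995_s_at of EDN1, the vasoconstrictor endothelin (log2 fold changes 2.80 and 2.54). So were 223333_s_at and 221009_s_at of ANGPTL4 (2.37 and 2.38), an inhibitor of lipoprotein lipase. The fifth was 239336_at of THBS1, the angiogenesis inhibitor thrombospondin (log2 fold change 1.25 ± 0.18 SE, limma adjusted p = 0.0265). It passed in 3 of the 8 fits without 1 array, those without untreated replicate A or B or TGFβ replicate A, with adjusted p up to 0.101 without untreated replicate C. In the block fit 0.758% of all probe sets rose and 0.989% fell. There 9 of the 51 rose, the additional 4 all of THBS1, and 1 fell. The 1 was the semaphorin SEMA3A, a ligand of NRP1 (log2 fold change -0.67, adjusted p = 0.0419, and 0.621 without the block). Without the block 15 of the 51 had an unadjusted limma p under 0.05. Among markers of other cell types, none of 17 endothelial probe sets passed in limma without the block, with 1 at an unadjusted p under 0.05. With the block, where 0.989% of all probe sets fell, 2 of the 17 did so. They were 1559921_at and 208983_s_at of PECAM1, an endothelial adhesion molecule (log2 fold changes -0.43 and -0.43, adjusted p = 0.0374 and 0.0485). None of 29 pericyte and fibroblast probe sets passed in either fit or had an unadjusted p under 0.05, the smallest p being those of RGS5 (log2 fold change -0.32) and DPT (0.18). Of 22 probe sets of the mesenchymal line's own markers none passed, though 3 had an unadjusted p under 0.05. CD44 229221_at passed with the block (log2 fold change 0.87, adjusted p = 0.0163, and 0.234 without it). The luminal marker CDH1 201131_s_at, E-cadherin, rose as 1 of 18 luminal probe sets, against 0.152% of all probe sets (log2 fold change 0.90 ± 0.11 SE, limma adjusted p = 0.0129). It lost its call without untreated replicate C or D (adjusted p up to 0.0673). Of the 18 luminal probe sets 3 had an unadjusted limma p under 0.05.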

How the data were processed

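Values on a log2 scale, 1 per probe set and array, were used as the authors deposited them, and RMA is the tool that the submitters' processing notes name. RMA corrects background, normalizes between arrays and summarises probes. No source used here gives its version or says which arrays were normalized together, and the base of the logarithm was inferred from the values. Of 54675 probe sets 62 Affymetrix controls were left out. Names of genes come from the platform annotation at GEO, dated 2016, where 41091 probe sets name 1 gene, 1801 several and 11721 none.

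Groups came from the labels. TGFβ minus untreated was fitted with limma 3.58.1 in R 4.3.3 (lmFit, eBayes, two-sided) over 54613 probe sets, with Benjamini-Hochberg adjustment over all of them. Differences between probe sets were tested by exact permutation. Same-letter arrays correlated in their deviations from the group means over 19775 genes, with r = 0.490, 0.688, 0.345 and 0.301 for A to D. The letters were therefore read as possible pairs, from the data and not the labels. The main fit, the fits without 1 array and the permutation tests took no account of the letters, so their p-values ignore this shared part. Values from a model with the letter as a replicate block are given where it changes a call. The number of arrays limits the precision.

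The members and lists were chosen with earlier results of these data known. The genes named are the members, from each list those that passed or else the 2 with the smallest p, and the 5 most like PDGFB. NRP1, SLC2A1, SEMA3A and the additional THBS1 probe sets were added after their values were seen because they passed with the block. Fits were also run on simulated data, with an outcome not given here. Figures were drawn with matplotlib 3.10.9.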

Additional observations from a re-analysis of the deposited data

Results flagged for a closer look

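In 50 groups of 4 arrays (the 23 probe sets and both control differences, in each treatment group), 6 had 1 array set apart from the other 3 by a gap above Dixon's critical value, where chance gives about 1 in 20 groups. Of these 6, 4 were TGFβ array A: VEGFA 210513_s_at at 6.34 (nearest array 7.76), VEGFA 211527_x_at at 6.25 (nearest 7.19), the actin 3′ minus 5′ difference at 1.68 (nearest 0.779) and that of GAPDH at 0.537 (nearest 0.097). VEGFA 212171_x_at had untreated array A at 8.53 (nearest 8.998). PDGFB 217112_at had TGFβ array D at 3.88 (nearest 4.05), a gap that is small on the log2 scale.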

How the results depend on the processing

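PDGFB 216061_x_at kept its direction and call in every fit in which it was tested, with log2 fold changes from 1.08 to 1.20 without 1 array. For 204200_s_at that range was 1.32 to 1.58, for 216055_at 0.32 to 0.51 and for 217112_at 0.03 to 0.09, neither of the last 2 with a call. The calls of 204200_s_at that were lost without 1 array had values of 1.32, 1.39 and 1.49. The number of member probe sets that passed was 2, all of PDGFB, and 1 or 2 without 1 array. It was 0 when _x_at and _s_at probe sets were left out, since that removes both, and 1 when counted per gene by the brightest probe set or the mean, but 2 (PDGFB and PDGFA) by the brightest probe set with the replicate block. Among the other members the count of 0 became 1 (PDGFA) with the replicate block, also with letter A left out. Over all probe sets 140 passed, 33 to 240 without 1 array (33 without untreated replicate D, 36 without untreated replicate C, 42 and 50 without TGFβ replicate D and C, 85 without TGFβ replicate B, 240 without TGFβ replicate A), 954 with the replicate block, and 1416, 282, 389 and 384 in that fit without letter A, B, C or D. With probe sets averaged per gene 85 genes passed. The fits with a letter left out were added after seeing the data. Limma on the differences between PDGFB probe sets gave the same calls as the exact test.

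Of 194 values of the 19 remaining probe sets in 11 settings, not counting the fits without 1 array, 183 kept direction and side of the threshold, 2 (PDGFA) passed and 9 turned sign, all without a call. With quantile normalization again PDGFC 222719_s_at was 0.0016 and VEGFA 210513_s_at and 211527_x_at were 0.0205 and 0.0201. In the block fit without letter A these 3 were 0.01, 0.21 and 0.0277, without letter B VEGFB was 0.0313, without letter C PDGFRA 215305_at was -0.0767 and without letter D PDGFRA 1554828_at was -0.0323. PGF averaged over its probe sets was -0.0928. Without 1 array PDGFC 222719_s_at lay between -0.26 and 0.24, PDGFRA 215305_at between -0.0459 and 0.10, VEGFA 212171_x_at between -0.0415 and 0.16, 210513_s_at between -0.16 and 0.35, 211527_x_at between -0.22 and 0.21 and VEGFB between -0.15 and 0.0839. The cause was not tested. Of the 23 probe sets 6 had a mean signal below the median of all probe sets, and no call of signal over background was used.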
